A study of Caenorhabditis elegans with 2 samples.

Results

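HSP70 chaperones are ATP-driven proteins that hold unfolded stretches of other proteins and help them fold, cross membranes or be degraded. Each compartment of the cell has its own members. In C. elegans, hsp-1 encodes the constitutive cytosolic form, and F44E5.4, F44E5.5 and hsp-70 encode cytosolic forms induced by heat. The genes hsp-3 and hsp-4 encode forms of the endoplasmic reticulum (ER), homologues of mammalian BiP, and hsp-6 encodes the mitochondrial form. Heat-induced members are classical targets of the heat shock factor HSF-1, hsp-4 is a target of the ER stress factor XBP-1, and hsp-6 is a reporter gene of the mitochondrial unfolded protein response.

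ZIP-11 belongs to the bZIP class of DNA-binding proteins, and its ChIP-seq peaks were described at these 7 HSP70 genes of 19985 annotated protein-coding genes. The members were chosen by name, with their signal values in earlier results of these data known. All their peak values are therefore given as descriptions, with no test. F44E5.4 and F44E5.5 are transcribed away from each other from 1 shared promoter, so the 7 genes have 6 promoters. The study held 2 samples of chromatin immunoprecipitation sequencing (ChIP-seq), biological replicates 1 and 2 of 1 group, and no second condition. Both came from whole worms of strain OP761 at the L4 larval stage, aged 52.5 hours, which had been synchronised by starving L1 larvae after bleaching. The strain carried the transgene wgIs761, in which zip-11 is fused to TY1, EGFP and 3xFLAG tags and is accompanied by unc-119(+), in an unc-119(tm4063) background. Chromatin was precipitated with an antibody against GFP, so the target was the tagged protein made from the transgene. The label's antibody field gives zip-11 itself. Neither sample was a control without the tag, and the lists do not state whether a control entered the signal values. Signal from a source other than the tagged protein therefore cannot be told apart from it. In whole worms, binding in few cells and weak binding in many cells cannot be told apart.

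The values are the authors' signal value of each peak and its rank within a list, where rank 1 is the highest. Signal differs in scale between lists. Each peak of a ranked list also carries its global irreproducible discovery rate (IDR) as −log10. It is high where a peak takes similar places near the top in both inputs that were compared. A low value can come from low places in both inputs as well as from unlike places. Thresholded lists held only peaks above 2 on that scale. The thresholded list of both samples together, called the pooled list here, had 364 peaks, the conservative list 329, and the samples' own lists 155 in replicate 1 and 108 in replicate 2. No list gives read counts, which leaves the sequencing depth unknown. A peak was given to a gene when its summit lay within 1000 bp of an annotated transcription start site (TSS). Positions are on WBcel235, which has the ce11 sequence, and are counted from 1.

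The sequences under the 3 promoters with a thresholded peak are shown because they differ in the elements they hold, and the hsp-4 promoter is shown beside its ER counterpart hsp-3. Capitals mark pairs of heat shock element units, TTCNNGAA or GAANNTTC, and the CRE core TGACGT, a site that many bZIP factors recognise, on either strand. The first sequence is the peak at chrII:11759329-11759608 on the plus strand, the second the stronger hsp-1 peak at chrIV:17278281-17278560 on the plus strand, and the third the part of the hsp-3 peak that lies upstream of the TSS, at chrX:6092125-6092337 on the minus strand. The fourth is the hsp-4 promoter, the 250 bases before its most upstream TSS, at chrII:7352646-7352895 on the minus strand, where no peak passed the threshold. The sequences were read from the RefSeq copy of WBcel235.
F44E5.4 and F44E5.5: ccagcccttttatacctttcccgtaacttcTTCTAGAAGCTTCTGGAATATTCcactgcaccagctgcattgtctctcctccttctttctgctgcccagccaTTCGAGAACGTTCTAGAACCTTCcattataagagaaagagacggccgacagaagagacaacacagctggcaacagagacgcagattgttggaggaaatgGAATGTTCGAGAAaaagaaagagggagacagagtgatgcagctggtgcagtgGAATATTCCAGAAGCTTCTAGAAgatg
hsp-1: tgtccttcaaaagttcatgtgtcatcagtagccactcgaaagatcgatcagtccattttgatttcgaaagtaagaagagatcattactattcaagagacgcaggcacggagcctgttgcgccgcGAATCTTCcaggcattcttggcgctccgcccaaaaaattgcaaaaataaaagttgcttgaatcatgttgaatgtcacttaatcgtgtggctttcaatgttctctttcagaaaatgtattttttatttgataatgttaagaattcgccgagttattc
hsp-3: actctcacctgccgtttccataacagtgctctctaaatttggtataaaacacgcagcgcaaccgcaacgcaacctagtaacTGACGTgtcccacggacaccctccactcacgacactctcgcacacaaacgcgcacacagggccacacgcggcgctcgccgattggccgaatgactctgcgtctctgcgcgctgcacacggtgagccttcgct
hsp-4: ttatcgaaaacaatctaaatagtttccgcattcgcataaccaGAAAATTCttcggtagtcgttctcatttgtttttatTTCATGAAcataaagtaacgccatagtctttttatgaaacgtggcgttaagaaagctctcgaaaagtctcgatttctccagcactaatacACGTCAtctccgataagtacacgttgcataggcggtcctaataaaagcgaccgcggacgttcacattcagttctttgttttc

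Of the 7 genes, 4 had a summit in the pooled list, at 3 of the 6 promoters: that of F44E5.4 and F44E5.5, that of hsp-1 and that of hsp-3. Among all protein-coding genes, 1.12% had one. The heat-induced gene hsp-70, the second ER gene hsp-4 and the mitochondrial gene hsp-6 had none. The conservative list held the same 4 genes, against 0.921% of protein-coding genes. In the samples' own lists F44E5.4 and F44E5.5 shared the single HSP70 promoter left, and the shares of protein-coding genes were 0.425% in replicate 1 and 0.26% in replicate 2. At a global IDR under 0.05 in the pooled ranked list, the promoters were still these 3, against 2.65% of protein-coding genes. The members were chosen with these values known, so nothing is read from how their counts compare with these shares.

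The cytosolic, heat-induced pair F44E5.4 (WBGene00009691, II:11757107-11759311, minus strand) and F44E5.5 (WBGene00009692, II:11759662-11761861, plus strand) had the highest values of the family in every list. Their peak had a signal value of 125.1 in replicate 1, where it ranked 30 of 51611 ranked peaks, and of 142.7 in replicate 2, where it ranked 16 of 53307. It was also in both samples' thresholded lists, at rank 23 of 155 in replicate 1 and rank 16 of 108 in replicate 2. The pooled value was 274.7, at rank 18 of 364. The −log10 global IDR was 3.89 in replicate 1 and 4.25 in replicate 2. It was 3.82 in the pooled ranked list and 3.74 in the conservative ranked list. This peak was thus above the threshold in all 4 comparisons. They are not independent: the pooled and conservative lists were both made from the same 2 samples and hold this peak with the same signal value. Each protein-coding gene was also given its highest signal within 1000 bp. By it, the pair ranked 12 of 18063 genes in the pooled ranked list, 12 of 13778 in replicate 1 and 11 of 13939 in replicate 2. This ranking included genes of the mitochondrial DNA: in the pooled ranked list COX3 ranked 1 (signal value 2628.4) and ND1 ranked 10 (453.3). F44E7.5 ranked 11 (306.3), next above the pair. What gave these higher signals was not tested.

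**Figure D1:**
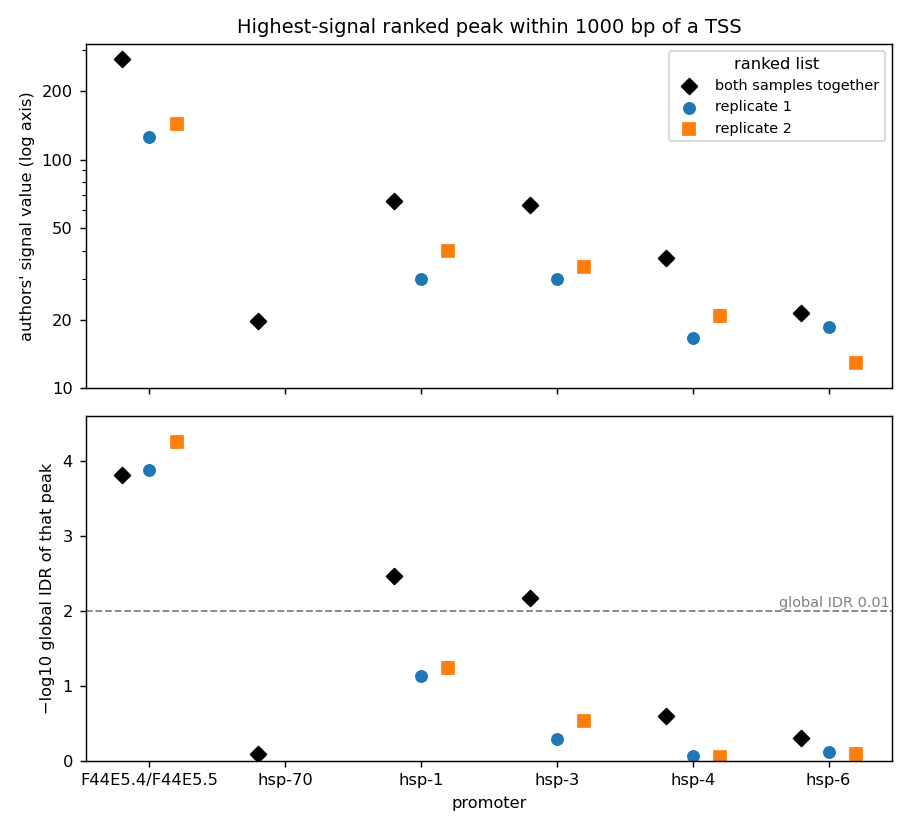
Upper panel: the authors' signal value (log axis) of the highest-signal ranked peak within 1000 bp of a TSS at each HSP70 promoter, in both samples together (black diamonds) and in replicate 1 (blue circles) and replicate 2 (orange squares). Lower panel: −log10 global IDR of the same peak, with the threshold of 2 dashed. F44E5.4 and F44E5.5 lie above the threshold in every list, hsp-1 and hsp-3 in both samples together but in neither sample alone. Neither sample had a ranked peak at hsp-70.

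The summit stood at the same base, II:11759469, in both samples and in the pooled list. It lay 158 bp upstream of the F44E5.4 TSS and 193 bp upstream of the F44E5.5 TSS, so it was 17.5 bp from the midpoint of the 350 bases between them. No other gene had a TSS within 1000 bp of it. The intergenic region held an inverted repeat: 45 bases at II:11759311-11759355 occurred as an exact reverse complement at II:11759608-11759652. Each gene began within or beside an arm, and the summit lay between the arms. The inverted repeat was not confined to these arms. Further inward, the bases at II:11759359-11759381 occurred as an exact reverse complement at II:11759582-11759604.

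The coding sequences of F44E5.4 and F44E5.5 were identical over 1935 bases, which encode 645 residues. As a result, 98.6% of the 31-base words of each coding sequence occurred more than once in the genome, and reads from there cannot be given to 1 of the genes. Around the summit this was not so: within 140 bp on either side, 90.4% of the 31-base words occurred once, and no word had more than 2 copies. Over the 364 peaks of the pooled list the median share of words found once was 99.8%, and all words were found once at 182 peaks. The repeated words around the F44E5 summit had both copies inside the same peak, as inverted copies of each other. How repeated words affected the signal at F44E5.4 and F44E5.5 was not tested. The windows of the highest-signal ranked peaks of hsp-70, hsp-1, hsp-3, hsp-4 and hsp-6 had no repeated word.

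The same peak was dense in heat shock elements, the sites of HSF-1. In the sequence above they form 4 arrays of 23, 23, 13 and 23 bases, the nearest of which ended 16 bp from the summit. The first and the last array are reverse complements of each other. An element of 3 units in a row was found at 10 positions in the peak, many of them overlapping. In the promoter window, from 250 bases before to 50 bases after the TSS, F44E5.4 and F44E5.5 each had 7 such positions, a number reached by 6 of 19973 protein-coding promoters, these 2 included. At least 1 was present in 1.97% of protein-coding promoters. The windows of F44E5.4 and F44E5.5 overlap, so some positions were counted for both genes. The arrays at II:11759431-11759453 and II:11759530-11759542 lie in both windows. Both genes also had a TATA box (TATAAA), 31 bp upstream of the TSS in F44E5.4 and 41 bp upstream in F44E5.5. TATAAA was present in 37.9% of promoters.

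The heat-induced gene hsp-70 is the closest relative of this pair among the members, with 87.6% of aligned residues identical to F44E5.4, but its values were among the lowest. The gene lies on chromosome I, from 9320325 to 9322519 on the minus strand, within the span of uggt-2. Neither sample's ranked list had a summit within 1000 bp of its TSS. The pooled ranked list had 3, of which the highest had a signal value of 19.8 and a −log10 global IDR of 0.0921, the lowest value in that list. It lay in the coding exon, 456 bp downstream of the TSS, and ranked 49346 of 111547 peaks. By its highest signal hsp-70 ranked 14332 of 18063 protein-coding genes, against 12 for F44E5.4 and F44E5.5. Its promoter window held 1 heat shock element of 3 units, at 73 bp upstream of the TSS, and a TATA box at 45 bp upstream. The coding sequences of hsp-70 and F44E5.4 shared 2 words of 31 bases. A stronger summit of hsp-70 in the pooled ranked list lay outside the window, 1408 bp downstream of the TSS, with a signal value of 37.9 and a −log10 global IDR of 0.633.

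The constitutive cytosolic gene hsp-1 (WBGene00002005, IV:17278959-17281330, plus strand) had a pooled peak with its summit 538 bp upstream of the TSS, with a signal value of 65.8 at rank 275 of 364. The samples' overlapping ranked peaks had values of 29.96 in replicate 1, at rank 971 of 51611, and 39.7 in replicate 2, at rank 202 of 53307. The −log10 global IDR was 1.13 in replicate 1 and 1.24 in replicate 2, both under the threshold, against 2.46 in the pooled ranked list and 2.22 in the conservative one. By its highest signal, hsp-1 ranked 468 of 13778 genes in replicate 1, 103 of 13939 in replicate 2 and 171 of 18063 in the pooled ranked list. Thus hsp-1 stood higher in the order of genes in replicate 2 than in replicate 1.

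This hsp-1 summit was nearer to another gene. It lay within an exon of the noncoding RNA gene F26D10.23, 8 bp downstream of that gene's TSS, and the C-type lectin gene clec-196 also had a TSS within 1000 bp. A second pooled peak at hsp-1, with its summit 319 bp upstream of the TSS, overlapped the first by 61 bp. It had a signal value of 18.7, at rank 355 of 364, near the median of 18.3 over all ranked peaks, yet its −log10 global IDR of 2.47 was as high as that of the first. The pooled list had 10 peaks with a signal value under 20, and each overlapped another peak of the list, as did 20 of the other 354.

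In place of a pair, each sample had 1 peak between the pooled summits, 78 bp from the stronger one in replicate 1 and 106 bp in replicate 2. The position within the hsp-1 upstream region therefore varied more between lists than at the shared F44E5 promoter or at hsp-3. Within 50 bp of each pooled summit stood 1 pair of the form GAANNTTC, which 4.40% of the pooled list's summits had. The hsp-1 promoter window held 1 element of 3 units, 144 bp upstream of the TSS and outside both windows. Further ranked summits lay in the hsp-1 coding exons at 112 bp and 810 bp downstream, with pooled values of 39.7 and 35.7 and −log10 global IDR of 0.269 and 0.192. The samples' own lists gave higher ones near the second position, 1.23 at 808 bp in replicate 1 (signal value 20.8) and 1.60 at 765 bp in replicate 2 (19.7), each above that of the same sample's upstream peak and under the threshold. In the conservative ranked list it was 0.781 at 810 bp. Beyond the window, hsp-1 had ranked summits 1331 bp downstream, with a signal value of 52.1, and 1704 bp upstream, with a value of 61.8 and a −log10 global IDR of 1.85.

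**Figure D2:**
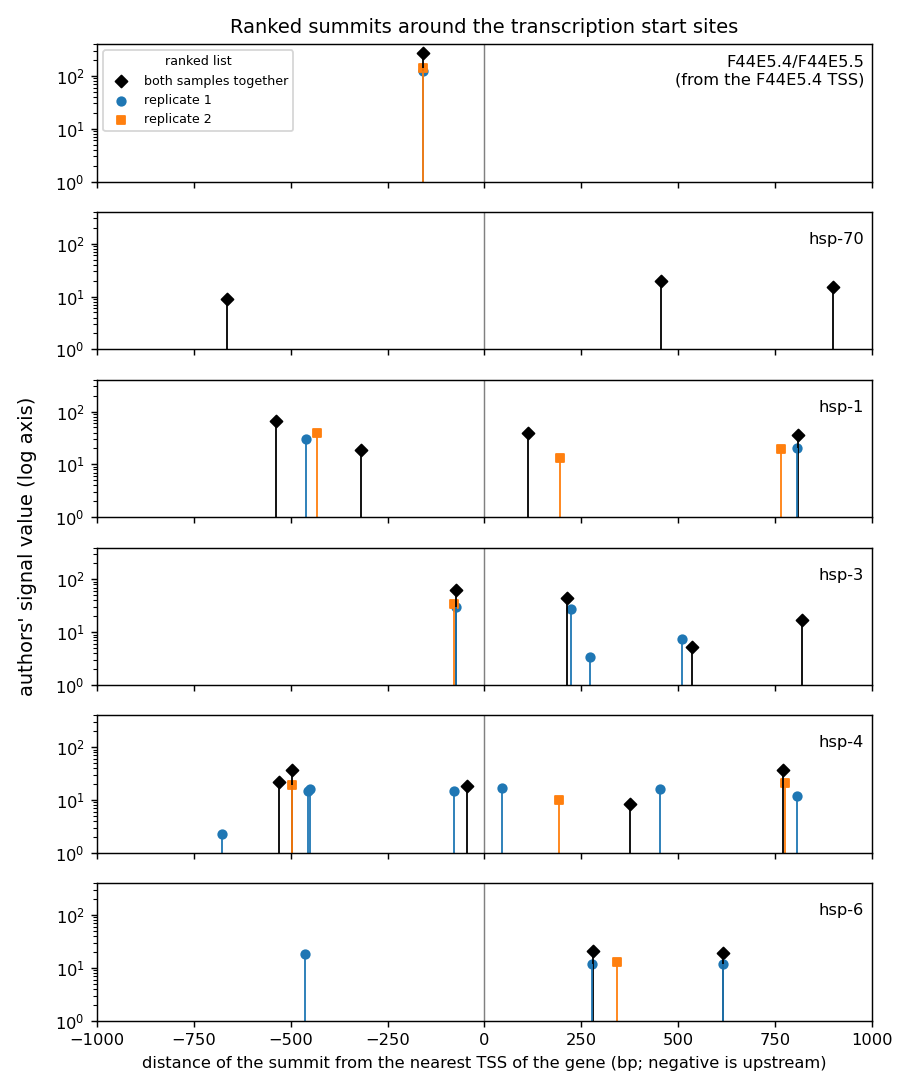
Every ranked summit within 1000 bp of a TSS of each HSP70 gene: horizontal axis, distance from the nearest TSS of the gene in bp, negative upstream; vertical axis, the authors' signal value (log axis); colours and markers as in the legend. The shared F44E5 promoter had 1 summit at 1 position in all lists, the hsp-3 summits near 74 bp upstream lay within 5 bp, and the hsp-1, hsp-4 and hsp-6 summits were spread over the window.

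The ER gene hsp-3 (WBGene00002007, X:6089028-6092124, minus strand) had 1 pooled peak, with its summit 74 bp upstream of the most upstream TSS and a signal value of 63.2, at rank 306 of 364. The samples' values there were 29.99 in replicate 1, at rank 963 of 51611, and 33.9 in replicate 2, at rank 407 of 53307. The summit was at the same base in replicate 1 and 5 bp away in replicate 2. The −log10 global IDR was 0.290 in replicate 1 and 0.534 in replicate 2, below those of hsp-1, and 2.17 in the pooled ranked list and 2.08 in the conservative one. It was thus the member just above the threshold in the pooled ranked list, and hsp-4, at 0.598, was the nearest below it. No other gene had a TSS within 1000 bp of the hsp-3 summit.

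The hsp-3 peak had a GC content of 58.2%, against a median of 43.2% over the 364 peaks of the pooled list (quartiles 38.6% and 47.5%). It held no heat shock element pair. It held 2 CRE cores, 1 in the sequence shown and 1 at 4 bp downstream of the TSS, both outside 50 bp of the summit. It also held a TATA box, 171 bp upstream of the TSS, and a CCAAT box within 50 bp of the summit. CRE cores were present in 10.3% of protein-coding promoters and in 5.77% of the peaks of the pooled list, and a CCAAT box in 36.8% of these peaks. The longer form TGACGTGG, an element of the unfolded protein response, was in none of the 7 member promoter windows and in 0.886% of all promoter windows. Only this exact form was searched. The core shown for hsp-3 continues as TGACGTGT, as does that shown for hsp-4 on its other strand, and this form was not counted. A second hsp-3 summit, in a coding exon 213 bp downstream of the TSS of the short transcript, had a pooled value of 44.01 and a −log10 global IDR of 0.817. Replicate 1 had a summit at 223 bp downstream with a value of 27.1, and replicate 2 had none there.

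The second ER gene, hsp-4 (WBGene00002008, II:7350112-7352645, minus strand), encodes a protein with 85.5% of aligned residues identical to that of hsp-3, and both proteins end in an ER retention signal. Its highest pooled ranked value was 37.1, at rank 6332 of 111547, with a −log10 global IDR of 0.598. That summit lay in a coding exon, 770 bp downstream of an internal TSS. The summit nearest to its upstream starts had a pooled value of 18.7 and a −log10 global IDR of 0.219. It lay within the gene, 46 bp upstream of the TSS at II:7352518 but downstream of the most upstream TSS at II:7352645. The highest values were 16.7 in replicate 1 and 20.7 in replicate 2, at different summits, and the −log10 global IDR of all hsp-4 peaks was at most 0.0701 in replicate 1 and 0.0668 in replicate 2. By its highest signal hsp-4 ranked 2958 of 18063 genes, against 211 for hsp-3. Its promoter window held 1 CRE core, 82 bp upstream of the TSS, and 1 heat shock element pair of each form, with no element of 3 units.

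The mitochondrial gene hsp-6 (WBGene00002010, V:4824124-4826760, minus strand) had the lowest pooled values after hsp-70. Its highest pooled ranked summit, in a coding exon 280 bp downstream of the TSS, had a signal value of 21.3 and a −log10 global IDR of 0.304. The highest values were 18.5 in replicate 1, 463 bp upstream of the TSS, and 12.9 in replicate 2, 343 bp downstream. The samples thus had their highest summits on different sides of the TSS, and the −log10 global IDR was at most 0.122 in replicate 1 and 0.0865 in replicate 2. By its highest signal hsp-6 ranked 13357 of 18063 genes. Its promoter window held no heat shock element pair, CRE core or TATA box. At the edge of the 1000 bp window, the farthest member summit inside was that of hsp-70 at 901 bp, and the nearest outside were those of hsp-3 at 1012 bp, with a signal value of 22.9, and of hsp-6 at 1022 bp, with a value of 21.2.

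**Figure D3:**
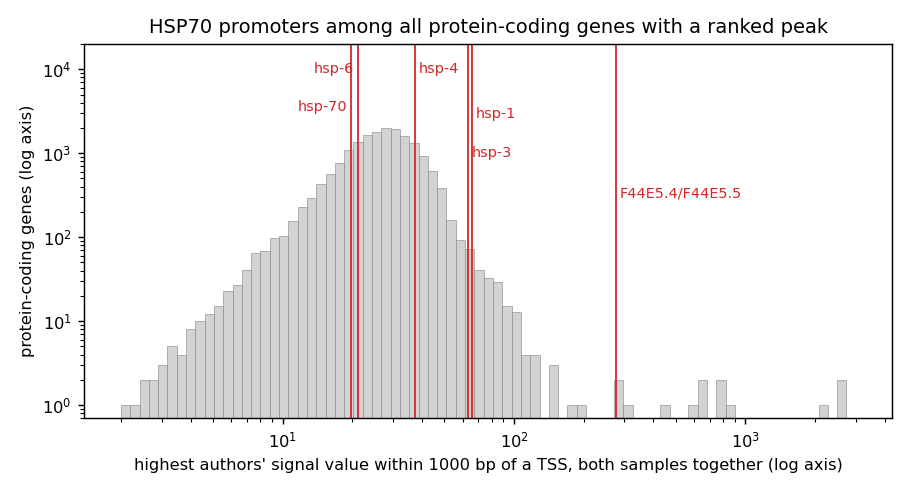
Number of protein-coding genes (log axis) by their highest signal value within 1000 bp of a TSS in the pooled ranked list (log axis), for the 18063 genes with a ranked peak. Red lines mark the HSP70 promoters. The median gene had 26.9. F44E5.4 and F44E5.5 lie far above the bulk, hsp-1 and hsp-3 near the 99th percentile value of 65.4, hsp-4 above the median, and hsp-6 and hsp-70 below it.

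In the pooled ranked list the order of highest signal was therefore F44E5.4 and F44E5.5, then hsp-1, hsp-3, hsp-4, hsp-6 and hsp-70. With 1 value per sample, the spread gives no test of neighbours in this order. In replicate 1 the values of hsp-3 (29.99) and hsp-1 (29.96) were nearly equal, whereas in replicate 2 hsp-1 (39.7) stood above hsp-3 (33.9). In replicate 1 hsp-6 (18.5) stood above hsp-4 (16.7), and in replicate 2 hsp-4 (20.7) stood above hsp-6 (12.9). The order of hsp-1 and hsp-3 and that of hsp-4 and hsp-6 was thus not the same in the samples. F44E5.4 and F44E5.5 came first, and hsp-1 and hsp-3 came before hsp-4 and hsp-6, in both.

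Heat shock element pairs were found in the promoter windows of F44E5.4, F44E5.5, hsp-70, hsp-1 and hsp-4. TTCNNGAA was in 18.9% of all protein-coding promoters and GAANNTTC in 18.5%, so single pairs were common. Elements of 3 units were in 4 of the 7 member windows, those of F44E5.4 and F44E5.5, which overlap, and of hsp-70 and hsp-1. Of these genes, hsp-70 had no thresholded summit, while hsp-3, without any pair, had one. Boxes of the forms CCAAT and GAGAGA were in 2 of the 7 windows each, and in 45.5% and 21.8% of all protein-coding promoters. The forms overlap: each element of 3 units holds pairs of both forms, and TGACGTGG holds the CRE core. A match is a description of the sequence and does not show that a factor was there.

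**Figure D4:**
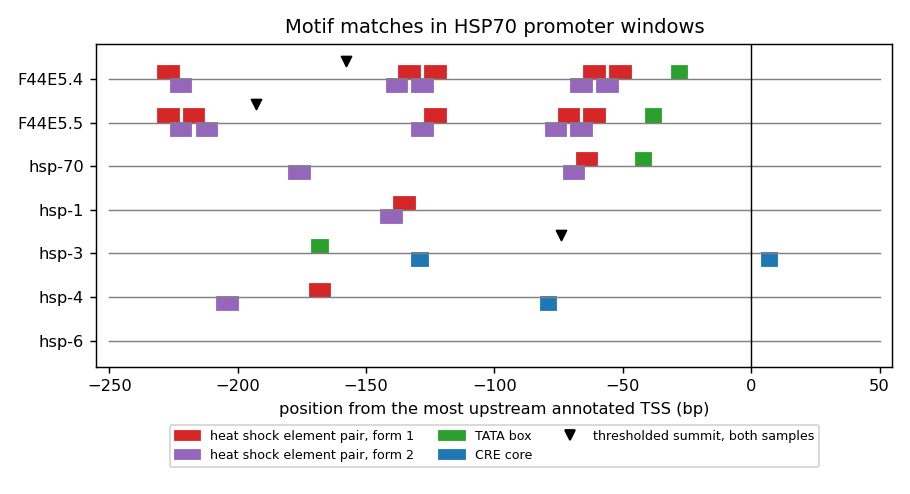
Matches on either strand in the window from 250 bp before to 50 bp after the most upstream annotated TSS of each HSP70 gene. Red and purple boxes are the 2 forms of heat shock element pair, green boxes TATA boxes, blue boxes CRE cores, and black triangles pooled thresholded summits. F44E5.4 and F44E5.5, whose windows overlap, each had 5 pairs of each form, some of them the same sites. The hsp-1 summits lie outside the window.

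Genes that work with HSP70 proteins were counted by the same rule. The lists were chosen with earlier results of these data known. Nothing is therefore read from how their counts compare with the share of protein-coding genes. Of 22 genes for HSP90 proteins, chaperonins and J-domain proteins, which pass clients to and from HSP70, 4 had a pooled summit, against 1.12% of protein-coding genes. They were the mitochondrial chaperonin gene hsp-60 (signal value 101.5), the cytosolic chaperonin subunit gene cct-8 (80.2), hsp-90 (68.0) and the J-domain gene dnj-13 (64.6). Each of these values was also the highest of another protein-coding gene: Y22D7AL.10, Y55F3AR.2, C47E8.4 and F54D5.9, in that order. The peaks can therefore not be given to the listed genes alone. In the samples' own lists cct-8 was present in replicate 1 and hsp-60 in replicate 2. No gene had a pooled summit among 5 further genes of the HSP70 superfamily, such as hsp-110, or among 6 genes for HSP70 partners, such as the nucleotide exchange factor gene bag-1. The same held for 12 small heat shock protein genes, 4 heat shock regulators including hsf-1, 13 genes of the ER unfolded protein response and 8 of the mitochondrial one. In the conservative list the ER list had 1, xbp-1 (signal value 50.2), which encodes a bZIP factor that induces ER chaperone genes. Median highest signals in the pooled ranked list were 26.9 for the HSP70 relatives, 41.1 for the partners, 36.2 for the HSP90, chaperonin and J-domain list, 35.9 for small heat shock proteins, 32.6 for the ER list and 33.8 for the mitochondrial list, against 26.9 for all protein-coding genes with a ranked peak. Of the 4 regulators, 2 had a ranked peak, with a median of 15.4.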

How the data were processed

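ZIP-11 ChIP-seq peak lists of 2 samples were used: 4 thresholded and 4 ranked lists on ce11, per the labels. The deposited lists give 1 signal value per peak, whose normalization is not stated in them, and −log10 global IDR is given in the deposited ranked lists. Which aligner and peak caller made the lists is not given in the sources used here. All peaks of the pooled and of the conservative thresholded list were found in 1 ranked list each at a global IDR under 0.01, which tied these lists. The samples' own thresholded and ranked lists were tied by the sample they belong to. Peaks were not called anew. Summits (column 2 plus column 10, shown from 1) were assigned to genes of Ensembl release 115 within 1000 bp of any TSS, signals were ranked within a list, and ranks are among all peaks. Sequence came from the RefSeq copy of WBcel235, and proteins were aligned as translated from the Ensembl coding sequences with Biopython 1.88. Motifs were searched on both strands in 19973 nuclear protein-coding promoters. Assignment and motif search were tested on simulated data. Members and lists were chosen with earlier results of these data known. All members were named, other genes by being within 1000 bp of a member's summit or in a list with a pooled summit. Of 80 list symbols, 3 had no match. Genes hsp-110, bag-1, hsf-1 and uggt-2 are named as examples or location. COX3, ND1 and F44E7.5 are named as genes ranked above F44E5.4 and F44E5.5. Y22D7AL.10, Y55F3AR.2, C47E8.4 and F54D5.9 are named because they share a signal value with a listed gene. The same holds for rps-26 and rpb-11, which share one with a gene that has a heat shock element. Alternatives were the other lists, distances of 500 and 2000 bp, other IDR levels and other assignments. Python 3.11.15, pandas 2.3.3 and numpy 2.4.6 were used.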

Additional observations from a re-analysis of the deposited data

How the results depend on the processing

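The 3 HSP70 promoters of the pooled list were also 3 in the conservative list, with distances of 500 and 2000 bp, at a global IDR under 0.05 and when any base of a peak could lie in the window. The count was 1, the F44E5.4 and F44E5.5 promoter, at a global IDR under 0.001, among the upper 50% of peaks when ordered by signal, and in each sample's own list, that is without replicate 1 or without replicate 2. With 500 bp, hsp-1 was counted through its weaker peak. It was 2 when the TSS had to be the nearest of all genes, since F26D10.23 is nearer to both hsp-1 summits. Ranked among 349 joined regions in place of peaks, the F44E5 promoter, hsp-1 and hsp-3 stood at ranks of 5.16%, 78.5% and 87.4% of the list, against 4.95%, 75.5% and 84.1%. Heat shock element pairs stood beside summits of 2 promoters within 50 bp and within 100 bp. No paired analysis was possible because there was 1 group and no test. Depth is unknown, and with 2 samples no error of a single signal value can be given.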

Other observations

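Heat shock elements of 3 units were counted in all protein-coding promoters. F44E5.4, F44E5.5, hsp-70 and hsp-1, whose promoters prompted the count, were left out after the data had been seen, with the other HSP70 members. Of the 389 other promoters with such an element, 9 (2.31%) had a pooled summit within 1000 bp of a TSS, and of 19577 without one, 200 (1.02%) did. The conservative list gave 4 (1.03%) against 166 (0.848%), replicate 1 gave 4 (1.03%) against 69 (0.352%), and replicate 2 gave 2 (0.514%) against 38 (0.194%). In the pooled ranked list, with no threshold, the share was lower with the element, 89.2% against 90.4%. With the members the pooled counts were 12 of 393 (3.05%) against 201 of 19580 (1.03%), and F44E5.4 and F44E5.5, which share 1 peak, were 2 of these 12, 2 of 6 in replicate 1 and 2 of 4 in replicate 2. The 9 other genes, named after their values were seen, were hsp-90, cpz-1, vig-1, egg-5, nhr-41, tmem-107, acbp-6, W01G7.4 and Y22D7AL.10, whose signal value of 101.5 is that of the hsp-60 peak. The values of hsp-90, tmem-107 and W01G7.4 were also the highest of C47E8.4, rps-26 and rpb-11, in that order. These peaks can therefore not be given to the genes with the element alone. A summit within 1000 bp need not lie at the element. Of the 364 peaks of the pooled list, 7 (1.92%) held such an element, the F44E5 peak among them, against 1.97% of protein-coding promoters. Within 50 bp of summits the share was 1.37% in the pooled list, 5 of 364 summits, and 0.653% in the pooled ranked list. The F44E5 summit, whose promoter prompted the count, was among the 5 and was not left out here. Pairs went the other way. TTCNNGAA stood beside 3.85% of summits in the pooled list and 6.59% in the pooled ranked list, and GAANNTTC was also rarer in the pooled list. No test was made. The count of elements of 3 units beside pooled summits is small, as are the counts in the samples' own lists.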
